A study of Bos taurus with 12 samples.

Results

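LHCGR, PRLR, PGR, PGRMC1, PGRMC2, OXT and INHA carry hormonal signals to, within and out of the corpus luteum, the ovarian gland that forms after ovulation and secretes progesterone. These 7 genes, of 6709 with a symbol, were followed over 12 bovine microarrays. Every probe other than a control whose annotation gave one of these symbols was taken. That gave 7 probes of 15208, 1 for each gene, and all 7 were among the 12605 probes tested.

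The tissue came from Japanese Black cows in vivo and was taken 10 to 30 min after exsanguination. Non-pregnant cows on day 15 of the estrous cycle formed the group NP15 (4 arrays). Pregnant cows on day 15 formed P15 (4 arrays) and pregnant cows on day 18 formed P18 (4 arrays), with insemination on day 1. The comparison of P15 with NP15 asks about pregnancy at one day, that of P18 with P15 about a later day of pregnancy, and that of P18 with NP15 joins both differences. Each array was hybridised with Cy3-labelled total RNA of the whole gland, so fewer cells of a type and less RNA per cell cannot be told apart.

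Luteinizing hormone acts through the receptor encoded by LHCGR and drives luteal progesterone synthesis, mainly through cyclic AMP. PRLR encodes the prolactin receptor, which signals through JAK and STAT proteins, and PGR the nuclear progesterone receptor. PGRMC1 and PGRMC2 encode heme-binding membrane proteins that have been linked to non-genomic progesterone responses. The ruminant corpus luteum also makes peptide hormones: OXT encodes oxytocin and its neurophysin, which large luteal cells store and release and which prompts prostaglandin release from the uterus, and INHA encodes the alpha subunit of inhibin.

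Each value rests on 1 probe, so the sequences that stand for the 7 genes are shown; the first 30 of 60 bases are given as the files hold them, in the same letter case throughout because no base is singled out.
LHCGR: aggcaaaaaagactctctacctagctcaaa
PRLR: tgggaagatggtagataggagagaaatgcc
PGR: tcccgggcactgagtgttgaatttccagaa
PGRMC1: tctgtcttagaatgcatgatatgtttgtgt
PGRMC2: gccttcagaactgcaattcttactcccttt
OXT: ggcccccgataccgtcggagcgcagccctc
INHA: tggtgcccaaccttctcacccagcactgtg
The whole probes held 40.0% to 60.0% G and C, against a median of 43.3% over all probes; the lowest was PGRMC1 and the highest OXT. With 1 probe a gene, transcript forms that a probe does not match went unmeasured, and no second probe was at hand to set beside any member.

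Values are log2 of the processed signal minus log2 of the array's 75th percentile, so 0 is the level of a probe brighter than 75% of the others. That percentile lay at a signal of 2867.5 to 4183.4 on the NP15 arrays, 2648.7 to 3772.8 on the P15 arrays and 2999.7 to 3558.5 on the P18 arrays. Probes well above background made up 79.6% to 85.6%, 75.3% to 80.5% and 67.5% to 72.6% of the total, in the same order, and the net signal of the negative controls was 34.6 to 38.7, 31.7 to 36.3 and 77.3 to 92.9. NP15 and P15 shared slide 1, with NP15 in row 1 of the slide and P15 in row 2. P18 lay alone on slide 2, which was scanned on another date. Slide, scan date and group cannot be told apart in either P18 comparison. Nor can the row of the slide and the group be told apart in P15 against NP15. NP15 replicate 4 stood apart: 4.08% of its probes were over 2 log2 units away from the average of replicates 1 to 3, where the same share was 0.317% to 1.29% for the remaining 11 arrays. Results that rest on it are given with and without it. As to the tissue, all 12 luteal steroidogenic markers on the array were well above background, and their levels summed to 555 to 644 times the 75th percentile in NP15 cows, 412 to 563 in P15 cows and 431 to 519 in P18 cows; STAR and HSD3B1, which dominate that sum, were saturated on up to 8 arrays. Of 4 red cell and platelet markers, HBB and SLC4A1 never rose well above background, while the other 2 did so on all 12 arrays. ALAS2, which is among those 2, was higher in P18 than in NP15 and P15, by 0.49 and 0.54 (limma adjusted p = 0.0142 and 0.00919). Of 7 trophoblast markers, PAG2 and TKDP1 never rose well above background, and the other 5 did so on 1 to 5 arrays each. The share of blood or trophoblast RNA in the tissue was not tested.

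All 7 probes were well above background on all 12 arrays, and none was saturated or marked as an outlier. The processed signal was 439.6 to 793.2 for PGR. OXT gave 102318.9 to 387148.5, and its spots were read from the low-gain scan and scaled up on all 12 arrays. Those of INHA were scaled up in this way on 3 arrays, NP15 replicate 2 and P15 replicates 2 and 3, and on no P18 array. The part of this scaling in the INHA changes was not tested. Signals of different probes are not comparable as amounts of RNA.

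**Figure D1:**
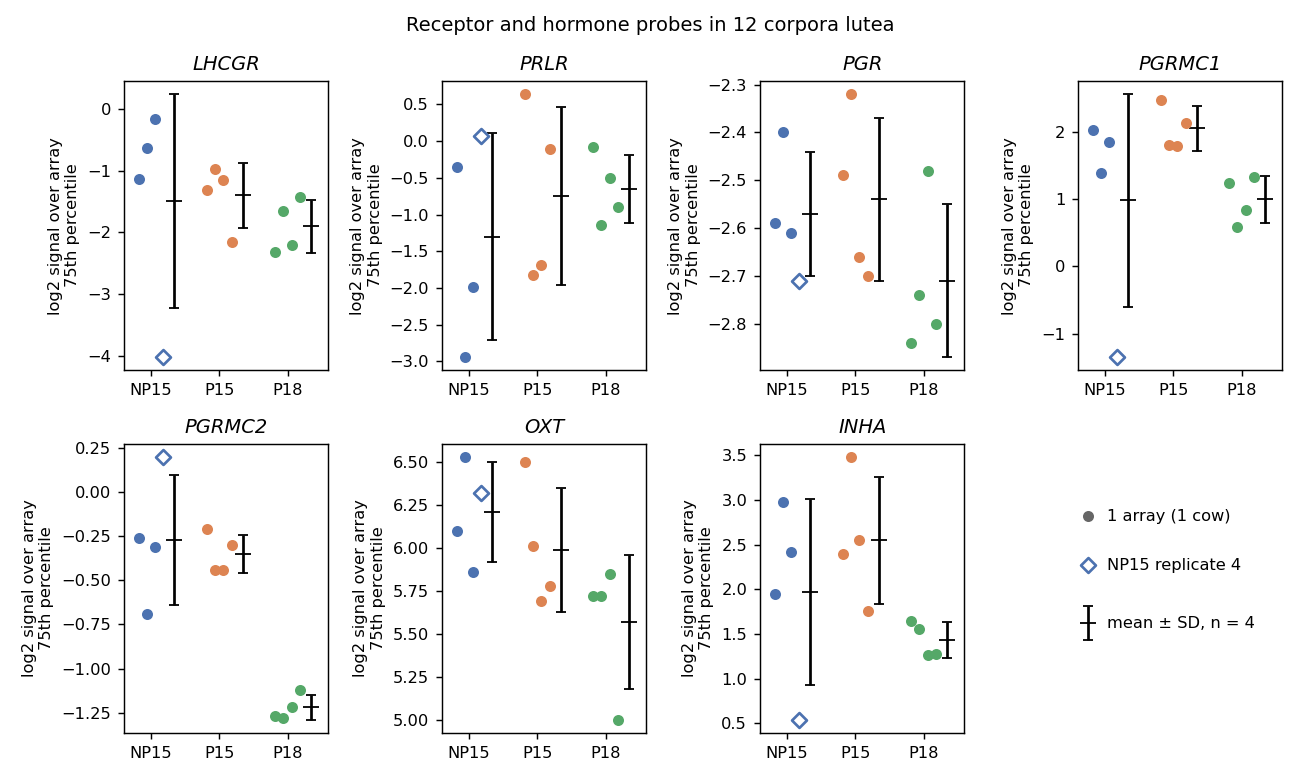
Log2 signal relative to the array's 75th percentile (vertical axis, a separate scale in each panel) of the 7 probes in NP15, P15 and P18. Each point is 1 array, the open diamond is NP15 replicate 4, and the bar is the mean ± SD of 4 arrays; PGRMC2 in P18, from -1.28 to -1.12, lies below all 8 arrays of the other groups, and the diamond is the lowest point for LHCGR, PGRMC1 and INHA.

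Of the 21 tests (7 probes in 3 comparisons), 2 passed an adjusted p of 0.05 (limma on all 12 arrays, Benjamini-Hochberg over all 12605 probes), and both were falls of PGRMC2 on day 18. No member passed the test between P15 and NP15: 0 of 7 were called, where 0.976% of all probes were called, and 0 of 7 had an unadjusted p under 0.05 (the smallest was 0.106, for PGRMC1). In P18 against NP15, 1 of 7 was called beside 29.9% of all probes, and in P18 against P15 also 1 of 7, beside 29% of all probes. These shares are no higher than the background. Without NP15 replicate 4 the counts were 3 of 7 in each P18 comparison, beside 33% and 36% of all probes, and again 0 in P15 against NP15, beside 0.809%.

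**Figure D2:**
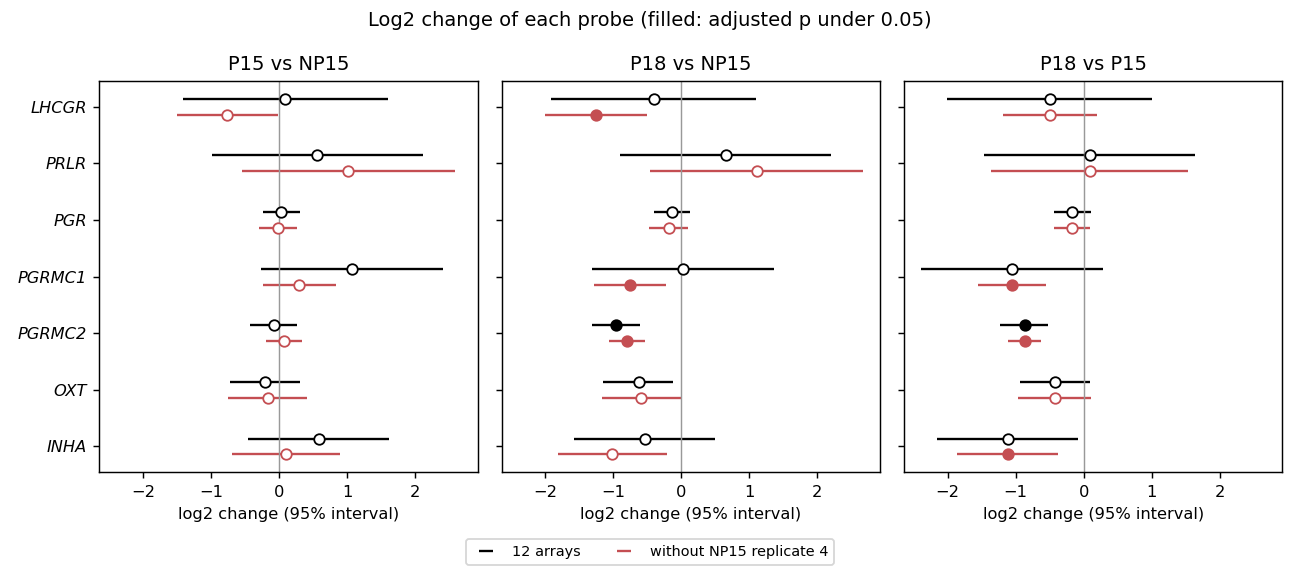
Log2 change (horizontal axis, point with 95% interval) of each probe in the 3 comparisons, with all 12 arrays in black and without NP15 replicate 4 in red; filled points have an adjusted p under 0.05. PGRMC2 is filled both ways in both P18 comparisons, while LHCGR, PGRMC1 and INHA gain a filled point only in red.

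LHCGR, the receptor for luteinizing hormone, varied more between cows of a group than between groups. In NP15 its log2 values were -1.13, -0.63, -0.17 and -4.02 in replicates 1 to 4. P15 gave -1.32, -0.97, -1.15 and -2.16, and P18 gave -2.32, -1.65, -2.20 and -1.43. The highest value and the lowest of all were both from NP15 cows, and the groups overlapped. Means were -1.49 ± 1.73, -1.40 ± 0.53 and -1.90 ± 0.43 (SD, n = 4). P18 was 0.41 below NP15 on the log2 scale (SE 0.69, 95% interval -1.92 to 1.1; limma adjusted p = 0.693), and P15 differed from NP15 by 0.09 (interval -1.42 to 1.60; adjusted p = 0.986), so a change of more than 2-fold either way lies within these intervals. Without NP15 replicate 4 the NP15 mean was -0.64 ± 0.48 (SD, n = 3), and P18 was 2.38-fold lower (log2 change -1.25, SE 0.33, limma adjusted p = 0.0168). P15 was then 0.76 lower with an adjusted p of 0.536.

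The 24 tested genes of LH receptor, G protein and cyclic AMP signalling held more lower than higher calls on day 18, as all probes together did. In P18 against NP15, 2 were higher and 8 lower, with a median log2 change of -0.25 beside -0.06 over all probes; in P18 against P15, 2 were higher and 6 lower, with a median of -0.17 beside -0.03. That is 10 and 8 called genes of 24, where 29.9% and 29% of all probes were called, and of the calls over all probes 37.4% and 46.4% were higher. With arrays centred on their median instead, which raises the median of all probes by 0.24 and 0.23, the splits were 3 higher and 6 lower, and 4 higher and 6 lower. AKAP13, an anchor for protein kinase A, fell to a mean of -2.35 ± 0.08 in P18 from -1.28 ± 0.21 in NP15 and -1.20 ± 0.02 in P15 (SD, n = 4 each; limma adjusted p = 8.09e-05 and 6.67e-05). GNA11, a G protein alpha subunit that couples receptors to phospholipase C, fell by 0.90 and 1.06 on the log2 scale. ADCY4, an adenylyl cyclase, fell by 0.85 and 1.00. For AKAP13, GNA11 and ADCY4 no P18 array overlapped either other group. Of all probes, 18.5% lay wholly lower in P18 than in NP15, and 18.4% wholly lower than in P15. PRKACB, a catalytic subunit of protein kinase A, was 1.72-fold lower in P18 than in P15 (adjusted p = 0.0047). The same fit placed PRKACA, another catalytic subunit, 0.47 and 0.52 higher in P18 (adjusted p = 0.0115 and 0.0068); it is named after its value was seen, as the counterpart of PRKACB. PRKAR1A, a regulatory subunit, was well above background on 0 of 4 P18 arrays, so its lower value there (adjusted p = 0.00285 against NP15) has no fold, and with a normexp background correction it was -0.09 (adjusted p = 0.743).

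In P15 against NP15, 1 of these 24 genes was called. GNAS, which encodes the stimulatory G protein alpha subunit that couples the LH receptor to adenylyl cyclase, had log2 values of 5.99, 5.97, 5.97 and 6.28 in NP15 and 5.26, 5.09, 5.27 and 5.23 in P15. The change was -0.84 (SE 0.10, 1.79-fold, limma adjusted p = 0.00315). The probe lies in row 189 of 192, and 95.1% of the 123 probes called in this comparison lay in the outer 24 rows at either edge, which hold 24.9% of the probes tested. After subtracting each array's deviation of the neighbouring rows, the change was -0.40 (adjusted p = 0.154), so the call was lost.

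PRLR, the prolactin receptor, had the widest spread of the 7 within groups. Its values were -0.35, -2.94, -1.98 and 0.07 in NP15 and 0.64, -1.82, -1.69 and -0.11 in P15. P18 was narrower, at -0.08, -1.14, -0.50 and -0.90. In both day 15 groups replicates 1 and 4 were high (-0.35 to 0.64 over 4 arrays) and replicates 2 and 3 low (-2.94 to -1.69 over 4 arrays), a split noticed after the values were seen. The replicate number is also the position on the slide; the part of position in this split was not tested. Group means were -1.30 ± 1.41, -0.75 ± 1.21 and -0.65 ± 0.46 (SD, n = 4), and all groups overlapped. P18 exceeded NP15 by 0.65 (SE 0.70, interval -0.90 to 2.20; limma adjusted p = 0.526), and P18 and P15 differed by 0.09 (interval -1.46 to 1.64).

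Among 13 tested genes of prolactin and growth hormone receptors, JAK and STAT signalling, none was called in P15 against NP15; PIAS1, an inhibitor of activated STAT proteins, had the smallest p (log2 change -1.26, adjusted p = 0.371) and was well above background on 3 NP15 arrays and no P15 array. In P18 against NP15, 1 was higher and 1 lower, beside 29.9% of all probes called. In P18 against P15, 1 was higher and none lower, beside 29% of all probes called. IGF1, an insulin-like growth factor that growth hormone signalling induces in many tissues, gave its highest signals on day 18. It read -7.92, -7.93, -7.43 and -7.78 in NP15, -9.23, -7.98, -6.27 and -7.17 in P15 and -5.49, -5.97, -5.10 and -5.21 in P18. The log2 change was 2.32 against NP15 (limma adjusted p = 0.00497) and 2.22 against P15 (adjusted p = 0.00673). It was well above background on all 4 P18 arrays but only on 2 arrays of each day 15 group, so the size of these changes is uncertain. The net signal of the probe lay between 48.8 and 93.2 on the 8 day 15 arrays and between 142.9 and 193.4 on the P18 arrays. That of the negative controls was higher on the P18 arrays too, at 77.3 to 92.9 against 31.7 to 38.7; the part of this background in the changes was not tested. With a normexp background correction they were 1.0 (adjusted p = 0.00072) and 0.79 (adjusted p = 0.00276). Its receptor IGF1R was 1.33-fold lower in P18 than in NP15 (adjusted p = 0.0233), a call lost under quantile, median and cyclic loess scaling, among others. STAT5B, which carries the prolactin signal to the nucleus, read -1.74, -1.73 and -1.72 in 3 NP15 cows and -5.59 in replicate 4, the array on which LHCGR was lowest.

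PGR, the nuclear progesterone receptor, was the steadiest of the 7. It read -2.59, -2.40, -2.61 and -2.71 in NP15, -2.49, -2.32, -2.66 and -2.70 in P15 and -2.84, -2.74, -2.48 and -2.80 in P18. Of the 4 P18 arrays 3 lay below every day 15 array and the other lay among the higher values. The pooled SD within groups was 0.16, smaller than that of most probes (median 0.27). P18 was 0.14 below NP15 (SE 0.12, interval -0.41 to 0.13; limma adjusted p = 0.426) and 0.17 below P15 (interval -0.44 to 0.10; adjusted p = 0.333). The sign of both turned under quantile, median and cyclic loess scaling. P15 and NP15 differed by 0.03 (interval -0.24 to 0.30), a ratio of 0.847 to 1.23.

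The fall of PGRMC2, the membrane progesterone receptor component, separated day 18 from day 15. NP15 gave -0.26, -0.69, -0.31 and 0.20. P15 gave -0.21, -0.44, -0.44 and -0.30, and P18 gave -1.27, -1.28, -1.22 and -1.12. The 4 P18 cows were nearly alike and all lower than the 8 day 15 cows. Of all probes, 18.5% lay wholly lower in P18 than in NP15, and 18.4% wholly lower than in P15. Means were -0.27 ± 0.37, -0.35 ± 0.11 and -1.22 ± 0.07 (SD, n = 4). The level was 1.94-fold lower in P18 than in NP15 (log2 change -0.96, SE 0.16, 95% interval -1.31 to -0.61, limma adjusted p = 0.0012) and 1.83-fold lower than in P15 (-0.87, SE 0.16, interval -1.23 to -0.52, adjusted p = 0.00218). Between P15 and NP15 the change was -0.08 (interval -0.43 to 0.27; adjusted p = 0.905). Downward calls were made for 18.7% and 15.6% of all probes in the 2 P18 comparisons, so falls were common among all probes on these arrays. The probe lies in the outer rows (row 174), where the median change of the 336 probes within 2 rows was -0.15 against NP15 and 0.01 against P15. After subtracting each array's deviation of the neighbouring rows, the changes of PGRMC2 were -0.77 and -0.89 (limma adjusted p = 0.00162 and 0.000712). The part of position in the fall was not tested. The call held without NP15 replicate 4 (-0.80, adjusted p = 0.000886, and -0.87, adjusted p = 0.000297).

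Markers of several cell types were also called in these comparisons. Beside them, 29.9% of all probes were called in P18 against NP15 and 29% in P18 against P15. Lower calls made up 18.7% and 15.6% of all probes. Of 10 endothelial markers 4 were lower and none higher in P18 against either day 15 group, and of 9 markers of fibroblasts, pericytes and smooth muscle also 4 were lower and none higher. Of 12 luteal steroidogenic markers, 1 was higher and 4 lower against NP15, and 2 were higher and 2 lower against P15; of 5 markers of oviduct and uterine epithelium, 1 was higher and 3 lower, and 2 were higher and 1 lower. Of 12 leukocyte markers, 1 was higher and 1 lower, and 2 were higher and 1 lower, and of 10 follicle markers none was called in either. The endothelial list summed to 8.65 to 13.2 in NP15 cows, 10.9 to 13.4 in P15 cows and 8.22 to 10 in P18 cows, and that of the stromal list 88.5 to 99.2, 88.2 to 101 and 65.3 to 82.7; no defining marker of either list was at background on all arrays. The part of these cell types in the fall of PGRMC2 was not tested.

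PGRMC1, the paralog, gave a result that turned on 1 array. NP15 gave 2.02, 1.39, 1.85 and -1.35, P15 gave 2.48, 1.80, 1.79 and 2.13, and P18 gave 1.24, 0.58, 0.83 and 1.33. Every P18 value lay below every P15 value and below 3 of the 4 NP15 values, while NP15 replicate 4 was lowest of all. Among all probes, 18.4% lay wholly lower in P18 than in P15. With all arrays P18 was 1.05 below P15 on the log2 scale (SE 0.61, interval -2.39 to 0.29; limma adjusted p = 0.224) and 0.02 above NP15 (interval -1.32 to 1.36; adjusted p = 0.987), and P15 was 1.07 above NP15, or 2.1-fold (interval -0.27 to 2.41; adjusted p = 0.699). Without NP15 replicate 4, which widens the shared spread, P18 was 2.08-fold below P15 (SE 0.22, adjusted p = 0.00481) and 1.69-fold below NP15 (log2 change -0.76, SE 0.24, adjusted p = 0.0349; NP15 mean 1.75 ± 0.33, SD, n = 3). P15 was then 0.29 above NP15 (interval -0.24 to 0.83).

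Other progesterone receptors and PGRMC partners moved in both directions. Of 12 tested genes none was called in P15 against NP15, and 2 were higher and 2 lower in each P18 comparison, with medians of 0.02 and 0.01. The 4 calls of 12 stand beside 29.9% and 29% of all probes called. PAQR7, a membrane progesterone receptor of the PAQR family, read -1.72, -2.30, -2.24 and -1.42 in NP15, -2.04, -1.98, -2.42 and -2.14 in P15 and -2.76, -2.81, -2.67 and -3.63 in P18. All P18 values were the lowest, where 18.5% of all probes lay wholly lower in P18 than in NP15 and 18.4% wholly lower than in P15. The change of PAQR7 was -1.05 against NP15 (SE 0.25, limma adjusted p = 0.0087) and -0.82 against P15 (adjusted p = 0.0279). The second call was lost in 8 of 27 other settings, with an adjusted p of 0.0553 to 0.0981: quantile, median and cyclic loess scaling, the replicate block, and leaving out P15 replicate 1, 2 or 4 or P18 replicate 4. FECH, the last enzyme of heme synthesis and a reported partner of PGRMC1, was 2.67-fold lower than in NP15 (adjusted p = 0.00971) and 2.11-fold lower than in P15 (adjusted p = 0.0355, lost in several settings). NENF, a secreted relative of the PGRMC proteins, was 1.34-fold and 1.29-fold higher in P18 (adjusted p = 0.00742 and 0.0158). The second call of NENF was lost under quantile and cyclic loess scaling (adjusted p = 0.0599 and 0.0788). SERBP1, an RNA-binding partner of PGRMC1, was 0.35 higher than in NP15 (adjusted p = 0.0449, lost without any of several arrays). Centring on the median turned the split in P18 against P15 to 5 higher and none lower.

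Of 12 steroid receptors, coregulators and chaperones of the receptor complex, none was higher and 4 lower in each P18 comparison (medians -0.25 and -0.20, beside -0.06 and -0.03 over all probes, of which 18.7% and 15.6% were called lower), and none was called in P15 against NP15. Centring on the median turned the splits to 1 higher and 3 lower, and none higher and 2 lower. PPID, PTGES3, NR3C1 and ESR2 were called in both. PPID, an immunophilin of the complex, was 1.85-fold and 1.99-fold lower (limma adjusted p = 0.000768 and 0.000432), and PTGES3, the p23 co-chaperone, fell by 0.65 and 0.53, the second call being lost under median centring (adjusted p = 0.0591). NR3C1, the glucocorticoid receptor, fell by 0.59 and 0.71, and its dimmer probe by 0.86 and 0.72. The first call of the brighter probe was lost under quantile, median and cyclic loess scaling, among others. Its second call was lost under cyclic loess scaling (adjusted p = 0.0534). ESR2, an estrogen receptor, was well above background on 0 of 4 P18 arrays, so no fold is given (adjusted p = 0.0019 and 0.0432), and both calls were lost with a normexp background correction. The call against P15 was lost in 13 of the 25 other settings that gave it a value, and with normexp its sign turned (0.08). ESR2 also had the smallest p of the list in P15 against NP15 (-0.55, adjusted p = 0.461). HSP90AA1, HSP90AB1 and HSPA8, the main chaperones, had changes of -0.34, -0.18 and -0.17 in P18 against NP15 that missed the threshold.

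**Figure D3:**
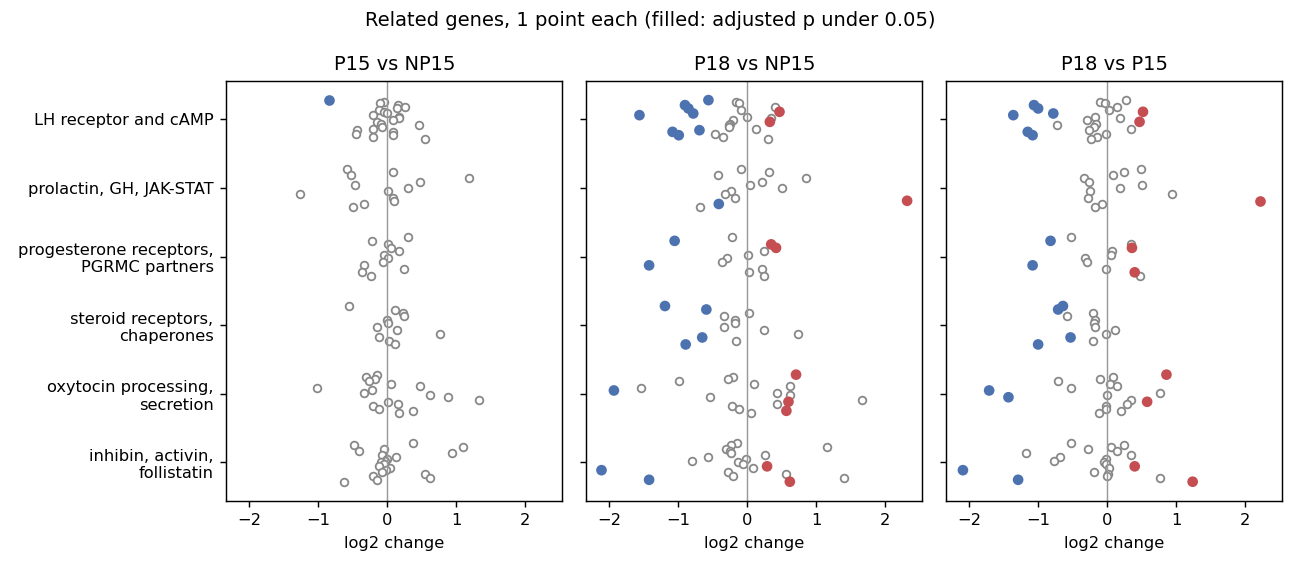
Log2 change (horizontal axis) of each tested gene of the 6 related lists (rows) in the 3 comparisons; 1 point is 1 gene, filled red when higher and filled blue when lower with an adjusted p under 0.05. The P15 against NP15 panel has 1 filled point, GNAS, and the list of steroid receptors and chaperones has filled points on the lower side only; genes below background on the P18 arrays are drawn at their fitted values.

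OXT, the oxytocin precursor gene, had its lowest mean in P18, but no comparison passed the test. NP15 gave 6.10, 6.53, 5.86 and 6.32, P15 gave 6.50, 6.01, 5.69 and 5.78, and P18 gave 5.72, 5.72, 5.85 and 5.0. All 4 P18 values lay below all 4 NP15 values, as for 18.5% of all probes, and 3 of them lay within the range of P15. Means were 6.21 ± 0.29, 5.99 ± 0.36 and 5.57 ± 0.39 (SD, n = 4). The change was -0.63 against NP15 (SE 0.23, 1.55-fold lower, interval -1.15 to -0.12; limma adjusted p = 0.0629) and -0.42 against P15 (interval -0.94 to 0.09; adjusted p = 0.205). P15 was 0.21 below NP15 (interval -0.72 to 0.30; adjusted p = 0.849).

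Of 18 tested genes of oxytocin precursor processing and secretion, none was called in P15 against NP15, where SYT1 had the smallest p (0.89, adjusted p = 0.0613, in row 4). In P18 against NP15, 3 were higher and 1 lower, and against P15, 2 were higher and 2 lower. That is 4 of 18 in each, beside 29.9% and 29% of all probes called. The processing enzymes PCSK1, CPE and PAM, which cleave, trim and amidate peptide hormones, had changes of -0.20, -0.98 and 0.62 in P18 against NP15, none past the test, and PCSK2 and the oxytocin receptor OXTR were not well above background on any array. AVP, the vasopressin gene and neighbour of OXT, read -5.50, -5.38, -5.74 and -5.54 in NP15, -5.65, -5.37, -5.86 and -5.89 in P15 and -4.80, -4.95, -4.73 and -4.83 in P18. Its mean was higher in P18 than in NP15 and P15, by 0.71 and 0.86 (limma adjusted p = 0.00225 and 0.000752). Its net signal lay between 94.2 and 144.7 on the day 15 arrays and between 202.3 and 215.3 on the P18 arrays, beside the higher signal of the negative controls given for IGF1, whose part here was not tested; with normexp the changes were 0.57 and 0.55 (adjusted p = 0.00255 and 0.00335). VAMP2, a vesicle fusion protein, was 1.52-fold and 1.49-fold higher (adjusted p = 0.00828 and 0.0103), and NR2F1, an orphan nuclear receptor, 1.49-fold higher than in NP15 (adjusted p = 0.0395, lost in several settings). CHGA, a granule protein, was at least 1.29-fold lower than in NP15 and at least 1.11-fold lower than in P15 (adjusted p = 0.00765 and 0.0143), since 0 of 4 P18 arrays held it well above background; a bound of this kind sets the brighter mean against the higher of the probe's own value and the dimmest detected signal on each array. SYT1, a calcium sensor of exocytosis, was likewise below background in P18 (adjusted p = 0.000359 against P15) and has no fold. A normexp background correction removed the calls of CHGA and SYT1.

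INHA, the inhibin alpha subunit, had its lowest mean and smallest spread on day 18, but no comparison passed the test with all arrays. NP15 gave 1.95, 2.97, 2.42 and 0.54, P15 gave 2.39, 3.48, 2.55 and 1.76, and P18 gave 1.64, 1.55, 1.26 and 1.27. Every P18 value lay below every P15 value, as for 18.4% of all probes, though P15 replicate 4 was close at 1.76. NP15 replicate 4 was again the lowest of all. Means were 1.97 ± 1.04, 2.55 ± 0.71 and 1.43 ± 0.20 (SD, n = 4). P18 was 2.17-fold lower than P15 (log2 change -1.12, SE 0.47, interval -2.16 to -0.08; limma adjusted p = 0.101) and 0.54 below NP15 (interval -1.58 to 0.50; adjusted p = 0.426). Without NP15 replicate 4 the change against P15 passed (SE 0.33, adjusted p = 0.0251) and that against NP15 was -1.02 (adjusted p = 0.0535). With all arrays kept, the change against P15 also passed with the replicate number as a block (adjusted p = 0.0321), with array weights (-1.31, adjusted p = 0.0177) and with only the P18 and P15 arrays fitted (adjusted p = 0.0336). P15 exceeded NP15 by 0.58 (interval -0.46 to 1.62; adjusted p = 0.802), and by 0.10 without NP15 replicate 4 (interval -0.70 to 0.90; adjusted p = 0.977).

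Among 21 tested genes of the inhibin, activin and follistatin list, none was called in P15 against NP15 and 2 were higher and 2 lower in each P18 comparison. That is 4 of 21, no more than the 29.9% and 29% of all probes called. The beta subunit INHBA, which pairs with INHA in inhibin A and with itself in activin A, had changes of -0.15 and -0.53, and follistatin (FST), which binds activin, of 1.16 and 0.06; none passed. SMAD4, the shared mediator of activin and BMP signals, was 0.29 and 0.40 higher in P18 (limma adjusted p = 0.0354, lost in several settings, and 0.00799). LHB, the beta subunit of luteinizing hormone listed as a pituitary target of inhibin feedback, read -2.63, -2.64, -2.35 and -2.53 in P18. Its mean there was above those of NP15 and P15 by 0.62 and 1.24 (adjusted p = 0.00966 and 0.000195). It also had the smallest p in P15 against NP15, at -0.62 (adjusted p = 0.103). BMP15, an oocyte growth factor, was lower by 1.42 and 1.29 (adjusted p = 0.00124 and 0.0024) with only 2 P18 arrays well above background, and both calls were lost with normexp. The brighter probe of BMPR1A, a BMP receptor, was not well above background in P18 and was at least 1.26-fold and 1.25-fold lower (adjusted p = 0.000945 and 0.00109), the first lost with normexp, while its dimmer probe had changes of 0.83 and 1.75 (adjusted p = 0.214 and 0.0168), so the probes disagree.

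With all arrays, LHCGR, PRLR, PGRMC1 and INHA varied more between cows of a group than most probes did, and for all of these but PRLR NP15 replicate 4 set much of the spread. The pooled SD within groups was 1.1 for PRLR, 1.07 for LHCGR, 0.95 for PGRMC1 and 0.74 for INHA, larger than that of 97.3%, 97%, 95.7% and 90.8% of tested probes; for OXT, PGRMC2 and PGR it was 0.35, 0.22 and 0.16. Without NP15 replicate 4 it was 1.03 for PRLR, 0.48 for LHCGR, 0.34 for PGRMC1 and 0.52 for INHA, larger than that of 97.5%, 82.7%, 68.6% and 85% of probes, and 0.37, 0.14 and 0.16 for OXT, PGRMC2 and PGR, beside a median of 0.23 over all probes. NP15 replicate 4 departed from the average of replicates 1 to 3 by -3.37 for LHCGR, -3.11 for PGRMC1, -1.90 for INHA and 1.83 for PRLR, but by 0.62, 0.16 and -0.17 for PGRMC2, OXT and PGR. Of the 100 related genes tested, 7 departed by more than 2 log2 units on that array, against 0 to 3 on each other array. STAT5B, STIP1, SCG2, SYT11, ACVR1 and GDF9 were lower and NR4A1, an immediate early nuclear receptor, was higher, by 2.93. A high NR4A1 was not particular to that array. It read 4.64 on P15 replicate 4 (0.29 to 2.36 on the other P15 arrays) and 3.9 on P18 replicate 2 (1.1 to 1.97 on the others). The luteal marker sum of NP15 replicate 4, at 644, was the highest in NP15, and its summed follicle marker level of 14 the lowest, against up to 77.9. STAR and HSD3B1, which dominate the luteal sum, had the same reading on each NP15 array, 7.55, 7.28, 7.6 and 7.83 in replicates 1 to 4. Such equal readings are those of saturated spots, so the luteal sum does not compare luteal content between these arrays. INSL3, a product of theca and small luteal cells, is on both lists. It read 1.09 on NP15 replicate 4 and 4.29 to 6.12 on the other NP15 arrays, where it made up most of the follicle sum. For the other follicle markers NP15 replicate 4 departed from the other NP15 arrays by -0.27 to 1.44, most of them upward, so the low sum reflects INSL3. The part of this array's RNA, hybridisation or cow in these values was not tested.

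Some members varied together over the 12 arrays. Of the 21 pairs, 1 passed a Benjamini-Hochberg adjusted p of 0.05: LHCGR and INHA, with Pearson's r = 0.788 (permutation p = 0.00218, adjusted 0.0458) and Spearman's rho = 0.839 (permutation p = 0.00123, adjusted 0.0258; 100000 resamples, two-sided). Without the 2 arrays farthest from the LHCGR median, r was 0.744; on slide 1 alone (8 arrays) it was 0.841, and without NP15 replicate 4 it was 0.678. LHCGR and PRLR had r = -0.645 and rho = -0.734 (adjusted permutation p = 0.0897 and 0.0862). Their r was -0.649 without the 2 farthest arrays, -0.617 on slide 1 and -0.683 without NP15 replicate 4. LHCGR and PGRMC1 had r = 0.759 (adjusted permutation p = 0.0774) and rho = 0.552, but r = 0.302 without the 2 farthest arrays, so that relation rests on them. Slide 2 held 4 arrays of P18 only, too few for a value of its own. Some pairs with little relation over 12 arrays changed with the arrays used. PGRMC1 and PGRMC2 had r = -0.00817, but 0.92 without NP15 replicate 4. PGRMC2 and INHA had r = 0.143, but -0.867 after group means were subtracted and 0.602 without NP15 replicate 4. These changed values were not tested.

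**Figure D4:**
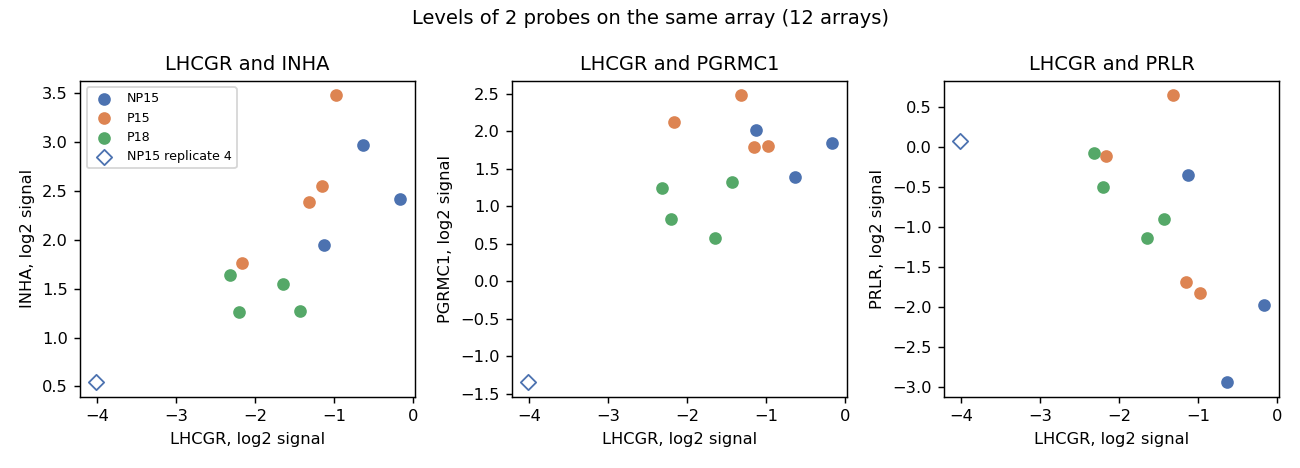
Log2 signal of INHA, PGRMC1 and PRLR (vertical axes) against that of LHCGR (horizontal axes); 1 point is 1 of 12 arrays, coloured by group, and the open diamond is NP15 replicate 4. INHA rises with LHCGR (r = 0.788), PRLR runs the other way (r = -0.645, adjusted permutation p = 0.0897), and the PGRMC1 panel is drawn out by the diamond.

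The genes most like each member were those with the highest Pearson r over the 12 arrays, among 6180 probes with a symbol; these are descriptions of shared arrays, with no test. PGRMC2 was followed most closely by ANKRD42 (r = 0.977) and COL4A1 (0.973), a collagen of basement membranes; after group means were subtracted these were 0.887 and 0.83. PGRMC1 was nearest to SENP7 (0.975) and FNDC3A (0.967), with 0.928 and 0.883 when NP15 replicate 4 was left out. LHCGR was nearest to HCFC1R1 (0.945) and EIF4A3 (0.942), and without that array the values were 0.865 and 0.888. INHA was nearest to TRIM28 (0.917) and DNMT3A (0.891), OXT to MEF2A (0.918) and BYSL (0.915), and PRLR to LAMA2 (0.887) and SWAP70 (0.884). PGR had the loosest neighbours, MYL6B (0.837) and GMPPB (0.814).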

How the data were processed

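Gene expression in 12 corpora lutea was measured on 1-colour bovine Agilent arrays. The authors deposited linear spot intensities for each array, and the file headers give the extraction software as Agilent Feature Extraction 9.5.1.1 (9.5 in the submitters' processing notes). Log2 values of the same arrays, also deposited, served as an alternative. Other deposited columns are quality marks per spot, per the file headers. The sources used here name no genome build.

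Processed signals were scaled to each array's 75th percentile and taken to log2, with non-uniform and outlier spots set missing. A probe was kept when well above background on at least 3 of 4 arrays of a group. All 12605 kept probes were fitted with limma 3.58.1 in R 4.3.3 on group means of 12 arrays, with Benjamini-Hochberg adjustment and a threshold of 0.05; the procedure was tested on simulated data. Probes were named from their annotation, and 4 members by an accession in the RefSeq table and 3 by symbol; 7047 of 15208 probes received a symbol. A listed gene is represented by its brightest kept probe. 1 gene that the naming rule below picks is not reported here.

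The members and lists were chosen with earlier results of these data known. Named were all member probes, up to 4 genes with the smallest adjusted p of each related list and comparison (where none passed, the one with the smallest p), the 2 genes most like each member, and markers never above background; genes named beyond that were chosen after their values were seen (PRKACA, STAT5B, INSL3, the others far off in NP15 replicate 4, the HSP genes, PCSK1, CPE, PAM, PCSK2, OXTR, INHBA, FST, STAR and HSD3B1). ALAS2 was also named after its value was seen. The labels give 4 animals a group, so p-values measure the spread between cows on single arrays. The number of arrays limits the precision. Alternatives covered scaling, background correction, filters, probe choice, row position, array weights, the arrays fitted, a replicate block and leaving out each array.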

Additional observations from a re-analysis of the deposited data

Results flagged for a closer look

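Of 21 sets of 4 arrays (7 probes in 3 groups), 1 held a value far from the others: OXT in P18 replicate 4, at 5.0 where the nearest P18 array read 5.72. That gap was 0.845 of the range of the group, above Dixon's 95% critical value for 4 samples. Chance flags about 1 in 20 such sets. Both P18 comparisons of OXT missed the threshold with that array included. Without it they missed the threshold too, and the log2 changes were smaller, at -0.44 against NP15 and -0.23 against P15.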

How the results depend on the processing

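Over 27 other settings (12 of them leaving out 1 array), no member was called in P15 against NP15, and PGRMC2 stayed called in both P18 comparisons in each of the 26 settings that hold its probe. Its log2 change ranged from -1.10 to -0.72 against NP15 (adjusted p 0.000428 to 0.00753) and from -0.91 to -0.65 against P15 (adjusted p 0.000297 to 0.00816). The number of members called in P18 against NP15 was 1; it was 2 under cyclic loess (OXT, -0.75, adjusted p = 0.0177), 0 with the outer rows left out, where the PGRMC2 probe itself drops out, and 1 to 3 when leaving out each array. In P18 against P15 it was 1; it was 2 with array weights (INHA, -1.31, adjusted p = 0.0177), 3 with only the arrays of the groups compared (PGRMC1 and INHA, adjusted p = 0.0094 and 0.0336), 0 with the outer rows left out and 1 to 3 when leaving out each array. The counts of 3 came without NP15 replicate 4, and leaving out P15 replicate 1 gave 2 against NP15 (OXT, adjusted p = 0.0441).

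The replicate numbers name different cows. Correlations of same-numbered arrays ran from -0.0397 to 0.293, not all over 0.1, so the numbers were not taken to pair them. Some arrays did correlate best with their own number in the other group. These were NP15 replicates 2, 3 and 4 among P15 arrays, NP15 replicates 1 and 3 among P18 arrays, and P15 replicate 1 among P18 arrays. The number is also the position on the slide, and the part of position here was not tested. With the replicate block, 0, 1 and 2 members were called in P15 against NP15, P18 against NP15 and P18 against P15 (INHA joined the last, -1.12, adjusted p = 0.0321). Slide as a random block was not run to a result, because slide is fixed by the group means and its correlation was set to 0.

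Signs turned as follows, the cause not being tested; ranges are over leaving out each array. PGR in P18 against NP15 was 0.07 (quantile), 0.10 (median centring) and 0.14 (cyclic loess), and against P15 0.02, 0.06 and 0.06; in P15 against NP15 it was -0.03 (row adjustment) and -0.05 to 0.09. PGRMC1 in P18 against NP15 was -0.05 (quantile), -0.02 (cyclic loess), -0.63 (array weights) and -0.76 to 0.37. PGRMC2 in P15 against NP15 was 0.12 (row adjustment) and -0.23 to 0.07. LHCGR in P15 against NP15 was -0.43 (array weights) and -0.76 to 0.52, and in P18 against NP15 -1.25 to 0.03. PRLR in P18 against P15 was -0.27 to 0.55.

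Over all probes, P15 against NP15 gave 123 calls, but 76 with normexp, 40 with the row adjustment, 214 with array weights, 65 with only the arrays compared, 75 with the replicate block and 0 without the outer rows; leaving out each array gave 67 to 121, the lowest being 67 when either NP15 replicate 1 or 2 was dropped, 70 for P15 replicate 2, 73 for NP15 replicate 3 and 80 for P15 replicate 3. Of the calls in P18 against NP15 and P15, 37.4% and 46.4% were higher, but 68.2% and 73.2% under median centring, 56.7% and 61.6% with normexp and 56.8% and 63.3% without the filter on dim probes; in P15 against NP15, 40.7% were higher, but 59.2% with normexp and 67.5% with the row adjustment. Signal over background limits ESR2, PRKAR1A, CHGA, SYT1, BMPR1A and BMP15 on the P18 arrays, where fewer probes were well above background, and the dim probes of IGF1 and AVP.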
